A study of Mus musculus with 16 samples.

Results

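The comparison set aortic valves of mice with both high cholesterol and hypertension (HC/HT) against valves of mice with high cholesterol alone (HC), over every gene of the deposited table. It used 7 of the 16 samples of the series, 3 HC/HT and 4 HC, chosen by their labels and not by any measured value. HC/HT mice lacked ApoE and carried transgenes for human renin and human angiotensinogen. HC mice lacked ApoE and carried neither transgene. The ApoE knockout and the C57BL/6J strain background were therefore common to both groups, and the question was what the hypertension model added in valves that already had the cholesterol model. The series also holds 4 valves from mice with the transgenes and intact ApoE (HT) and 4 control valves (CON), which enter the shared estimate of spread and are set beside the comparison at the end. Age, the promoters of the transgenes and any pooling of valves are not given in the sources used here, and blood pressure was not analysed here. HC/HT held 2 females and 1 male (replicate 1), and HC held 3 females and 1 male (replicate 2). HC/HT replicate 4 is labelled and was not used here.

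Renin cuts angiotensinogen to angiotensin I, and angiotensin-converting enzyme makes angiotensin II from it, which constricts vessels and acts on fibroblasts and smooth muscle through the type 1 receptor. ApoE clears lipoprotein remnants from plasma, so its loss raises circulating cholesterol and brings lipid-laden macrophages into vessel walls and valves. An aortic valve leaflet is a sheet of interstitial cells in collagen, proteoglycan and elastin, covered on both faces by endothelium, and stiffening of that matrix is the fibrotic form of valve stenosis.

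Values are the authors' normalised values times 1 common factor that sets the median library total to 1000000, called units here. A deposited count of 1 is 0.098 units, so values under about 1 unit carry little precision, and sequencing depth is unknown because the deposited totals are nearly equal. Differences are HC/HT minus HC on log2(units + 1), adjusted for sex, with their standard error (SE), and they understate the change of low genes. Apoe stood at 9.80, 7.54 and 5.98 units in the HC/HT libraries, against 12.3, 6.95, 5.98 and 2.16 in HC, while HT averaged 342 ± 227 and CON 761 ± 305 units (SD, n = 4 each). The human transgenes and mouse Ren1 have no row, and mouse Agt was listed at 0 in all 3 HC/HT libraries and at 1.18 or less in HC. Of 22 interstitial and fibroblast markers 21 passed the filter, with Dcn (decorin) at 1968 units or more in each of the 7 libraries. The filter asks only for 1 unit in 4 libraries, so it does not tell valve from other connective tissue. A set of 4 abundant rows took 45.3, 53.0 and 54.3% of the HC/HT libraries and 35.0, 41.0, 35.6 and 54.1% of the HC libraries. HC replicate 4, with the highest of the HC shares, was the lowest HC library for 56.4% of genes tested. Tissue was bulk, so fewer cells of a type and less RNA per cell cannot be told apart, and nothing in the labels says which replicates were handled together, so p-values measure the spread between these samples.

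No gene passed the test. Of 15004 genes tested, 0 were higher and 0 lower at an adjusted p under 0.05 (limma, Benjamini-Hochberg), and the smallest adjusted p was 0.152, for Trhde. At an unadjusted p under 0.05 there were 661 genes (4.41%), 104 higher (0.693%) and 557 lower (3.71%), fewer than the 750.2 that a uniform p would give. The lean to lower values was general: the median difference of all genes was -0.18, and 30.6% of genes had a difference above 0. All 3 HC/HT libraries lay above all 4 HC libraries in 153 genes (1.02%) and below them in 679 (4.53%). The split depends on the scaling. With median-of-ratios factors the all-gene median was -0.02, the unadjusted p gave 357 higher and 481 lower, and 427 genes (2.84%) lay above and 503 (3.35%) below. Scaled to the total without the 4 abundant rows, the split turned: the all-gene median was 0.03, the unadjusted p gave 467 higher and 393 lower, and 548 genes (3.63%) lay above and 397 (2.63%) below. Of the 39 gene lists described, 34 had a median below 0 on the deposited scale, 31 without the 4 abundant rows in the total and 30 after quantile normalisation. Each difference of HC/HT minus HC given next is on the deposited scale, unless another setting is named, and is to be read against -0.18. Values with median-of-ratios factors are to be read against -0.02, after quantile normalisation against 0.00, and among females alone against -0.24. With 1 library of either group left out, the all-gene median lay between -0.29 and -0.13.

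Among the genes named as lower, Trhde, Pcp4l1 and Lyve1 are given first. Trhde, the ectoenzyme that inactivates thyrotropin-releasing hormone (chr10:114398820-114802302, mm10), had 2.16, 0.392 and 1.76 units in HC/HT, against 11.6, 9.89, 17.0 and 7.35 in HC. Its difference was -2.37 ± 0.44. No HC/HT value came near the lowest HC value, and the means were 1.44 ± 0.926 (SD, n = 3) in HC/HT and 11.5 ± 4.11 (n = 4) in HC. Pcp4l1, a relative of the calmodulin-binding protein Pcp4, had 8.42, 2.45 and 6.17 units in HC/HT, against 20.1, 19.9, 23.6 and 17.6 in HC (-1.77 ± 0.40, adjusted p 0.579). The groups were well apart in both genes.

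Lyve1 is the hyaluronan receptor of lymphatic endothelium and of a class of resident macrophages (chr7:110850607-110862953). It had 0.392, 0.980 and 1.76 units in HC/HT, against 20.7, 20.4, 17.0 and 2.55 in HC (-2.71 ± 0.58, adjusted p 0.620). A single HC library, replicate 4, came near the HC/HT values. Without it the adjusted p was 0.000263, and without any 1 of the other HC libraries it was 0.999 or more. Lyve1 passed in 2 of 20 alternatives, and its difference lay between -3.37 and -1.74. Of 7 tested lymphatic endothelial markers 1 was above 0 (median -0.54). Lyve1 and Mmrn1 were the 2 below HC in all HC/HT libraries, beside 4.53% of all genes. Mmrn1 had 1.37, 1.67 and 1.76 units in HC/HT, against 6.17, 3.72, 8.91 and 4.02 in HC (-1.25 ± 1.42). Prox1, the transcription factor that specifies lymphatic fate, had 24.2, 25.4 and 81.1 units in HC/HT and 45.4, 43.2, 68.3 and 75.7 in HC, so its groups overlapped. Of 29 macrophage markers 28 had a difference below 0 (median -0.42). Cd163, Folr2 and Cd209f, which often accompany Lyve1, were among those with the smallest p. Their groups overlapped (limma adjusted p 0.984 each). Cd163 had 1.37, 3.04 and 0.196 units in HC/HT, against 4.21, 15.4, 8.52 and 0.882 in HC (-1.48 ± 0.59), and Folr2 had a difference of -1.05 ± 0.51. Cd209f was listed at 0 in all 3 HC/HT libraries, against 1.86, 1.86, 2.15 and 0 in HC. HC replicate 4 lay within the HC/HT range in Cd163 and Cd209f. In Folr2, at 1.86 units, it was just below the lowest HC/HT value, 1.96. In Lyve1 it was above the highest HC/HT value, though near it.

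The remaining genes named as lower cover hormone and growth factor signalling, vessel lining and metabolism. Prlr, the prolactin receptor, had 0.196, 1.37 and 0.686 units in HC/HT, against 5.78, 7.15, 8.33 and 4.21 in HC (-2.03 ± 0.49). Figf, the lymphatic growth factor VEGF-D, had 11.2, 5.29 and 7.05 units in HC/HT, against 17.5, 30.7, 28.5 and 13.7 in HC (-1.43 ± 0.38). Clec14a, an endothelial lectin, had 6.07, 12.1 and 15.9 units in HC/HT, against 27.3, 22.8, 40.8 and 23.6 in HC (-1.26 ± 0.36). In each of these the groups did not overlap, by the rule that named them. Sncg (gamma-synuclein) stood at -2.02, Vwc2, a secreted BMP antagonist, at -1.88, the protocadherin Pcdh18 at -1.78, and the dehydrogenase Aldh5a1 at -1.62. The others were Grhpr (-1.77), H2-M2 (-1.58), Fbxw10 (-1.54), Lhpp (-1.44) and Tom1l1 (-1.38). Their adjusted p was 0.808 or 0.984. Some of these genes were low in every library. Fbxw10 had 0.392, 0.784 and 0.196 units in HC/HT, Grhpr 0, 1.37 and 0.196, and Lhpp 1.76, 0.784 and 0. Their highest HC values were 5.49, 5.29 and 4.80 units, so those differences rest on few counts.

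**Figure D1:**
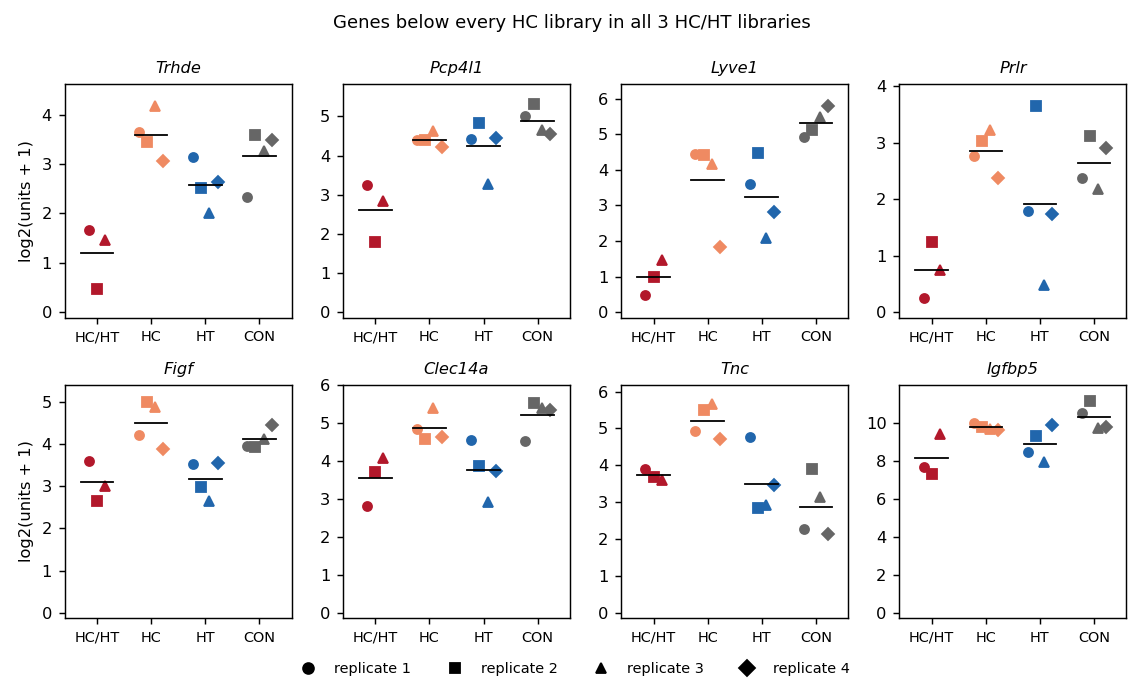
Level of 8 genes in every library, log2(units + 1) on the vertical axis, by group on the horizontal axis. Points are libraries with shape giving the replicate number, and lines are group means. In each panel the 3 HC/HT points lie below the 4 HC points, and in Lyve1 HC replicate 4 is close to them.

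Genes named as higher were mostly low in HC and spread in HC/HT. Moxd1, a copper monooxygenase related to dopamine beta-hydroxylase (chr10:24223517-24302783), had 1.96, 2.64 and 5.29 units in HC/HT, against 0, 0.392, 0.196 and 0 in HC (1.85 ± 0.41, adjusted p 0.579). Ano3, a member of the anoctamin membrane protein family, had 11.4, 7.74 and 6.46 units in HC/HT, against 2.74, 2.55, 1.67 and 0.196 in HC (1.85 ± 0.47, adjusted p 0.808). Ano3 had the smallest adjusted p when median-of-ratios factors were used, at 0.185. Nrg1, an epidermal growth factor-like ligand of ErbB receptors that endocardium secretes, had 79.6, 40.5 and 21.0 units in HC/HT, against 11.8, 9.31, 11.5 and 13.2 in HC (1.72 ± 0.60, adjusted p 0.984). The HC values of Nrg1 were tight and the HC/HT values were wide apart, with replicate 1 highest and replicate 3 lowest.

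Pdgfb, the platelet-derived growth factor B chain that recruits mural cells, showed the same order of libraries. It had 105, 30.3 and 21.3 units in HC/HT, against 19.8, 16.7, 8.72 and 13.4 in HC (1.41 ± 0.62). Replicate 3 lay only just above the highest HC library. Prx, the Schwann cell protein periaxin, stood at 1.61, the clock factor Arntl2 at 1.32, the lysophosphatidic acid receptor Lpar2 at 1.30 and the checkpoint kinase Chek1 at 1.19. Dbpht2 (1.67), Impg2 (1.40), Ptchd1 (1.27), Slco5a1 (1.25), Neto2 (1.18), Nacad (1.15) and Ccdc19 (1.04) were the others, each with adjusted p 0.984. For Impg2, Lpar2, Neto2 and Ccdc19 no library of the 7 except HC/HT replicate 2 for Lpar2 exceeded 4 units, so those differences rest on few counts.

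**Figure D2:**
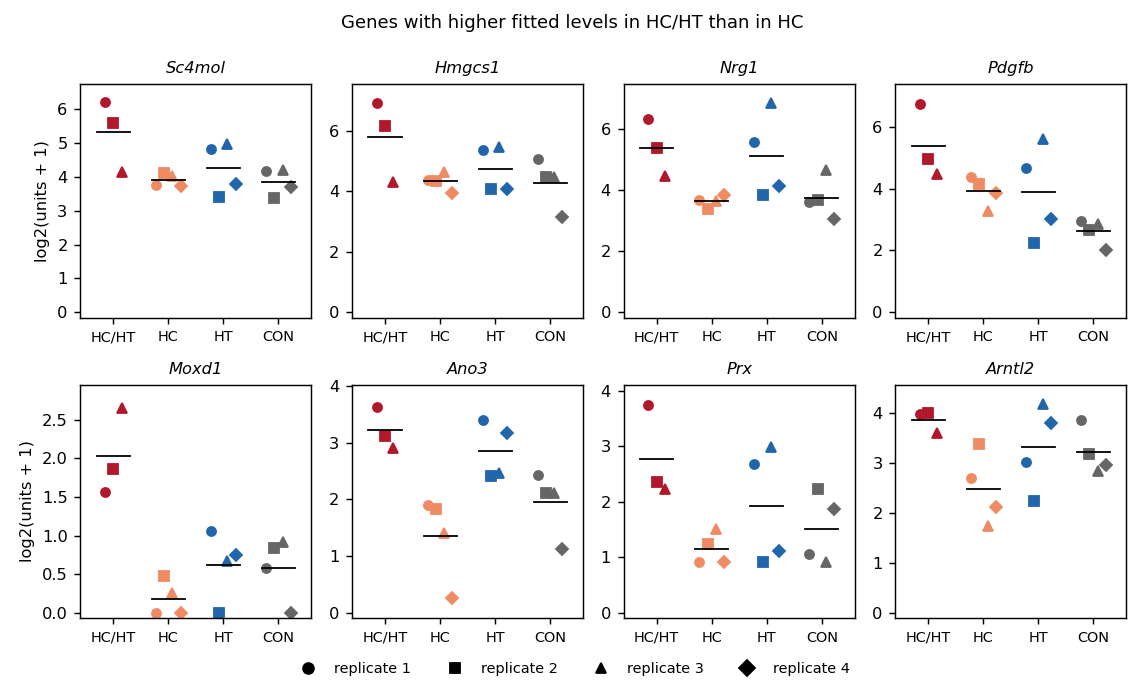
Level of 8 genes in every library, log2(units + 1) on the vertical axis, by group on the horizontal axis. Points are libraries with shape giving the replicate number, and lines are group means. In Sc4mol and Hmgcs1 HC/HT replicate 3 lies far below replicates 1 and 2, near the HC points, and in Nrg1 and Pdgfb it is the lowest HC/HT point.

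Cholesterol synthesis was the gene group that stood highest in HC/HT. Cells make cholesterol from acetyl-CoA in a chain of steps that includes the synthase Hmgcs1, and genes of the chain respond to the SREBP-2 transcription factor (Srebf2) when sterol in the cell is low. Of 24 tested members of the list, 23 had a difference above 0, beside 30.6% of all genes, with a median of 0.97 (1.12 with median-of-ratios factors). None passed the test. At an unadjusted p under 0.05 (limma) 7 were higher, beside 0.693% of all genes. A further count, 3, among them Sc4mol and Tm7sf2, lay above HC in all 3 HC/HT libraries, beside 1.02% of all genes. Ebp, a sterol isomerase of the same pathway, was the exception at -0.93 ± 0.54.

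The list was not high in all HC/HT valves. Hmgcs1 had 120, 70.3 and 18.8 units in HC/HT, against 19.8, 19.0, 23.8 and 14.5 in HC (1.45 ± 0.55). Insig1, which holds the SREBP complex in the endoplasmic reticulum and was picked out after its values were seen, had 140, 67.1 and 13.3 units in HC/HT, against 26.4, 18.0, 22.3 and 17.2 in HC (1.21 ± 0.66). In both genes HC/HT replicates 1 and 2 were well above HC, and replicate 3 was within the HC range or below it. Sc4mol, a sterol methyl oxidase, had 73.3, 47.3 and 16.6 units in HC/HT, against 12.6, 16.4, 15.3 and 12.2 in HC (1.36 ± 0.41). Here replicate 3 lay above HC by a small margin. Summed over the list, HC/HT held 1196, 744 and 236 units, against 284, 288, 297 and 224 in HC. Srebf2 did not follow the order of its targets, with 35.2, 19.1 and 35.9 units in HC/HT and 17.7, 22.4, 18.1 and 13.0 in HC (0.67 ± 0.39).

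Single libraries set the size of the cholesterol difference. Without the HC/HT male, replicate 1, the list median was 0.51, and without HC/HT replicate 3 it was 1.51. Among females alone it was 0.59, and the summed list of the HC male, at 288 units, was within the range of the HC females. With 1 male in each group, the part of sex in the order of libraries was not tested. The order replicate 1 above 2 above 3 held in 17 of the 24 genes (70.8%), beside 21.6% of all genes tested. Another row followed these libraries: RN45S, the ribosomal RNA precursor, had 7688 and 12570 units in HC/HT replicates 1 and 2 and 115402 in replicate 3, against 77083, 69446, 87127 and 45912 in HC. Its part in the result was not tested.

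The promoter of Hmgcs1 is shown because it alone among these genes held the sterol regulatory element searched for, TCACNCCAC on either strand. The windows were RefSeq's on GRCm38.p6, 250 bases before to 50 after a start site. Of the 24 tested genes 17 had such a window, and 1 (5.88%) held the motif, beside 388 of 27025 genes (1.44%) and 408 of 32851 windows (1.24%). The stretch below runs along the plus strand at chr13:119690174-119690262, from 177 to 89 bases before the start of Hmgcs1, with the motif in capitals at position -137.
Hmgcs1: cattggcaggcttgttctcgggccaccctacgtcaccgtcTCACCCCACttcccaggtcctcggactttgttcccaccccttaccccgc
A match is a description of these letters, and its absence from the other windows says only that the letters are not there.

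**Figure D3:**
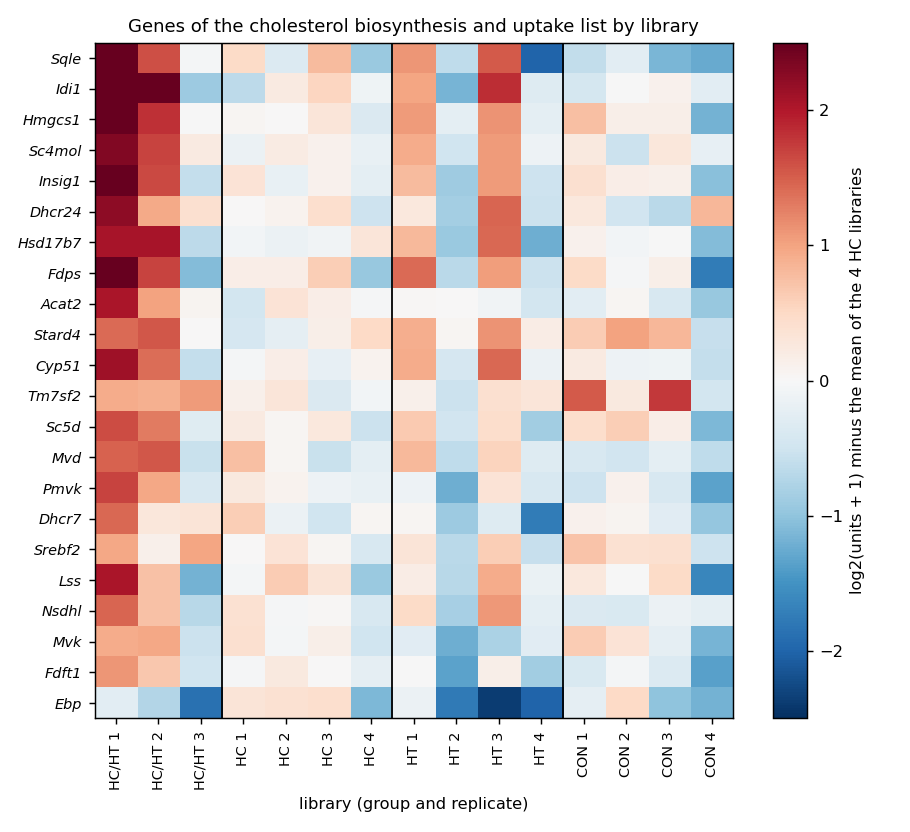
Genes of the cholesterol synthesis and uptake list, some left out (rows, ordered by the difference) in all 15 libraries (columns), coloured by log2(units + 1) minus the mean of the 4 HC libraries. HC/HT replicates 1 and 2 are red for nearly every gene, HC/HT replicate 3 is pale or blue for most, and HT replicates 1 and 3 are redder than HT replicates 2 and 4.

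Edn1 and Bmp2, a pair of secreted signals, shared the library order of the cholesterol genes. Edn1, the vasoconstrictor peptide endothelin-1, had 99.4, 33.7 and 6.86 units in HC/HT, against 8.52, 12.7, 8.91 and 9.01 in HC (1.40 ± 0.87). Bmp2, a bone morphogenetic ligand, had 132, 28.9 and 12.8 units in HC/HT, against 12.4, 11.8, 22.1 and 10.5 in HC (1.32 ± 0.77). Replicate 1 was far above every HC library in both genes, and replicate 3 was not. Edn1 and Bmp2 were picked out after their values were seen. Wnt9b, a Wnt ligand of valve endothelium, had 309, 234 and 148 units in HC/HT and 157, 80.6, 80.6 and 162 in HC (0.94 ± 0.47). Nos3, the endothelial nitric oxide synthase, had 105, 50.4 and 54.0 units in HC/HT and 53.2, 29.4, 25.1 and 56.8 in HC (0.73 ± 0.38), and these 2 genes were likewise picked out after their values were seen. Of 21 endothelial markers, 10 (47.6%) had a difference above 0, beside 30.6% of all genes, with a median of -0.00. With median-of-ratios factors 15 were above 0 and the median was 0.18. Among females alone the median was -0.32. The list thus stood above the all-gene median on both scales, but not among females alone. Robo4 stood at 0.89 ± 0.40 and Emcn at -0.72 ± 0.37. Of 14 adhesion genes 8 (57.1%) were above 0, with a median of 0.07 (0.26 with median-of-ratios factors), also above the all-gene median. Vcam1, which tethers leukocytes, had 774, 491 and 365 units in HC/HT and 472, 406, 792 and 400 in HC (0.04 ± 0.44).

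Matrix genes, the stuff of fibrosis, stood lower in HC/HT than in HC rather than higher, and none passed the test. Of 22 fibrillar collagen and crosslinking genes, 2 had a difference above 0, and the median was -0.34 (-0.15 with median-of-ratios factors). Col3a1, the type III collagen chain, had 341, 918 and 333 units in HC/HT, against 748, 2140, 1282 and 420 in HC (-1.02 ± 0.50). Col1a1, the main type I chain, had 278, 306 and 284 units in HC/HT, against 337, 679, 532 and 253 in HC (-0.54 ± 0.37). In both, HC replicate 4 overlapped HC/HT, and HC replicate 2 was the highest of the 7. Without HC/HT replicate 3 the list median was -0.11, and without HC replicate 4 it was -0.57. Col11a1, a minor fibrillar collagen, was the 1 member below HC in every library, beside 4.53% of all genes, with 0.392, 0.196 and 1.08 units in HC/HT, against 2.94, 3.53, 5.09 and 1.67 in HC.

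Proteoglycan and matricellular genes included a few whose groups did not overlap. Tnc, the injury-associated glycoprotein tenascin-C, had 13.9, 11.9 and 11.1 units in HC/HT, against 29.2, 43.9, 49.6 and 25.3 in HC (-1.43 ± 0.45), and the HC/HT libraries were close to each other. Podn (podocan) had 0.588, 0 and 0.196 units in HC/HT, against 2.06, 13.3, 3.43 and 0.882 in HC (-1.85 ± 0.59), and Ogn (osteoglycin) had 17.7, 20.3 and 18.1 in HC/HT, against 51.5, 219, 93.3 and 22.7 in HC (-1.83 ± 0.98). Of 18 proteoglycan genes 6 were above 0 (median -0.41), of 20 matricellular genes 4 (median -0.47), and each list had 2 members below HC in all libraries, beside 4.53% of all genes. The abundant Dcn (-0.78 ± 0.43) and Lum (-1.01 ± 0.54), small leucine-rich proteoglycans, overlapped through HC replicate 4. Postn (-0.29 ± 0.42) and Fn1 (-0.71 ± 0.42), markers of activated fibroblasts, overlapped too. Spp1 (osteopontin) had 344, 381 and 238 units in HC/HT and 140, 735, 2098 and 416 in HC, within the HC spread.

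Matrix-cutting enzymes stood lower than the all-gene median, and signalling genes stayed nearer to it. Among 22 proteases and inhibitors 5 were above 0 (median -0.44), and 3 lay below HC throughout, beside 4.53% of all genes. Adamts5, which cuts versican and aggrecan, was among them, with 39.1, 59.8 and 60.3 units in HC/HT, against 93.6, 110, 145 and 75.3 in HC (-0.95 ± 0.34). Of 29 TGF-beta and BMP genes 7 were above 0 (median -0.27), or 13 with median-of-ratios factors (median -0.08), and after quantile normalisation the median was 0.01. Bmp4 had 28.9, 26.1 and 30.3 units in HC/HT, against 66.3, 43.5, 58.5 and 40.4 in HC (-0.82 ± 0.32), the opposite side from Bmp2. Tgfb1, the archetypal fibrotic cytokine, had 9.99, 6.66 and 14.1 units in HC/HT and 10.2, 13.2, 7.25 and 15.2 in HC (-0.17 ± 0.43). Of 33 Notch and Wnt genes 12 (36.4%) were above 0, beside 30.6% of all genes, and the median was -0.33 (-0.15 with median-of-ratios factors), with Fzd2, a Wnt receptor, at -1.25 ± 0.46 and the Notch target Heyl at -0.89 ± 0.43. Osteogenic and chondrogenic genes had 3 of 15 above 0 (median -0.24), with Runx2, the bone master regulator, at 0.12 ± 0.42 and Cytl1, a secreted cartilage protein, at -1.13 ± 0.41.

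Growth factor genes had members apart in both directions. Nrg1 and Pdgfb lay above HC in every library, and Figf and Igfbp5 lay below it, of 29 tested, beside 1.02% of all genes above and 4.53% below. Of the 29, 9 had a difference above 0 (median -0.39). Igfbp5, which binds insulin-like growth factors in the matrix, had 205, 155 and 685 units in HC/HT, against 1010, 877, 809 and 786 in HC (-1.60 ± 0.48). HC/HT replicate 3 was the one near HC. Igf1 itself had 228, 224 and 406 units in HC/HT, against 849, 507, 819 and 353 in HC (-1.03 ± 0.45). Valve interstitial and fibroblast markers stood at a median of -0.53, with 3 of 21 above 0. Tcf21, a fibroblast transcription factor, had 0.784, 3.62 and 1.08 units in HC/HT and 4.90, 10.9, 15.3 and 1.08 in HC (difference -1.42). Summed, those markers came to 9745, 8366 and 5856 units in HC/HT, against 17917, 17485, 17824 and 6381 in HC, so that 3 HC libraries stood above and HC replicate 4 within the HC/HT range. The part of these markers in the matrix values was not tested.

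**Figure D4:**
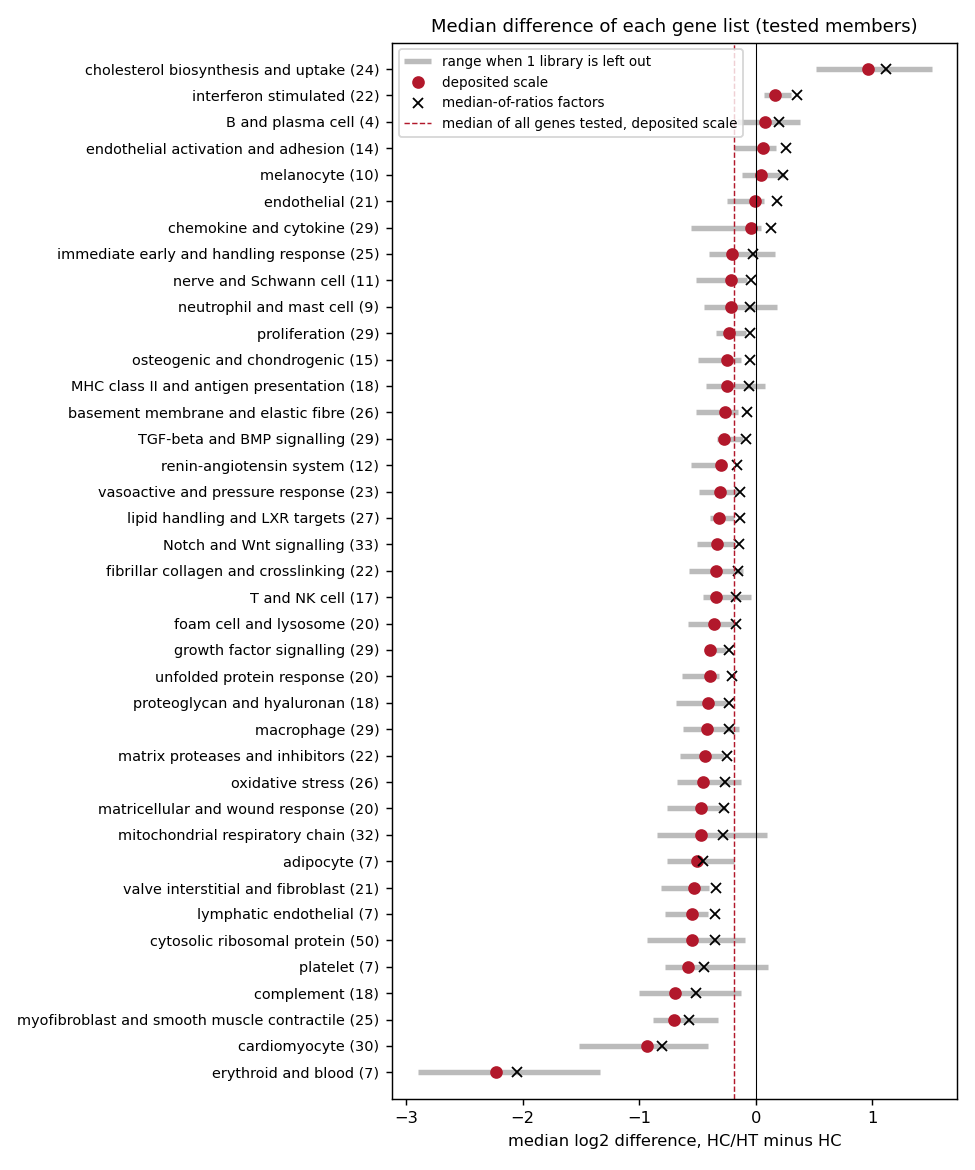
Median difference (HC/HT minus HC, log2, horizontal axis) of the tested members of 39 gene lists, with the number tested in brackets. Circles are the deposited scale, crosses median-of-ratios factors, grey bars the range when 1 library of either group is left out, and the dashed line the median of all genes tested, -0.18. Cholesterol synthesis stands alone on the right at 0.97, and most lists lie between -0.6 and 0.

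Contractile genes stood lower in HC/HT than in HC. Of 25 tested 2 were above 0, with a median of -0.70 (-0.57 with median-of-ratios factors). Myl9, the smooth muscle myosin light chain, had 7.25, 5.68 and 2.64 units in HC/HT, against 18.0, 67.7, 18.9 and 5.49 in HC (-1.84 ± 0.82), and Mylk, its kinase, had a difference of -0.98 ± 0.51. No member separated the groups, beside 1.02% of all genes above HC and 4.53% below. HC replicate 2 was the highest HC library, and the median was -0.32 without it. Acta2, smooth muscle actin, had 54.3, 83.2 and 27.2 units in HC/HT and 86.5, 305, 84.2 and 49.5 in HC (-1.03 ± 1.30). Heart muscle markers moved with HC replicate 2 as well: summed they came to 603, 592 and 343 units in HC/HT, against 1079, 2019, 432 and 798 in HC, with a median of -0.93 over 30 genes that was -0.41 without that library. Ryr2, the cardiac calcium release channel, had 5.09, 4.02 and 3.13 units in HC/HT, against 20.8, 37.8, 8.52 and 15.4 in HC (-1.91 ± 1.03). The part of attached heart muscle or vessel wall in the contractile values was not tested.

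Red cell genes had the median farthest from 0 of the 39 lists, -2.23 with 0 of 7 above 0. Hbb-bs, a beta globin, had 36.1, 165 and 60.1 units in HC/HT, against 6796, 115, 983 and 254 in HC (-3.07 ± 1.63). The summed list was 12278 units in HC replicate 1 alone, and the median was -1.34 without that library. Platelet genes had 3 of 7 above 0 and a median of -0.58, which became 0.10 without HC/HT replicate 3.

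Genes of the renin-angiotensin system itself were not higher. None of the 12 tested had a difference above 0 (median -0.30, or -0.16 with 4 above 0 under median-of-ratios factors). Ace, the converting enzyme, had 232, 167 and 136 units in HC/HT and 221, 194, 176 and 131 in HC (-0.01 ± 0.42). Agtr1a, the type 1 angiotensin receptor, was at 0, 0 and 0.196 units in HC/HT and 0.294, 3.62, 4.21 and 0 in HC (-1.19 ± 0.55). Mme, the peptidase neprilysin that degrades angiotensins and natriuretic peptides, had 2.16, 5.09 and 7.54 units in HC/HT, against 15.0, 23.1, 20.2 and 7.15 in HC (-1.50 ± 0.57). Of 23 other vasoactive genes 5 were above 0 (median -0.31). Gucy1a3, a subunit of the nitric oxide receptor, had 23.8, 10.4 and 16.2 units in HC/HT, against 36.4, 136, 43.8 and 25.3 in HC (-1.57 ± 0.62), and Kcnj8 and Abcc9, which together form a vascular potassium channel, stood at -1.24 ± 0.45 and -0.77 ± 0.38. Nppb, on the heart muscle list, encodes the B-type natriuretic peptide of stretched heart muscle and had 18.1, 6.95 and 0.686 units in HC/HT and 0.196, 1.37, 0 and 2.55 in HC (1.80 ± 1.04).

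Macrophages, which carry the lipid of ApoE knockout valves, were present in both groups. Of 29 macrophage markers 1 had a difference above 0, with a median of -0.42 (-0.23 with median-of-ratios factors). The groups were apart in 0 of them, beside 1.02% of all genes above HC and 4.53% below. Cd68, a lysosomal macrophage marker, had 77.0, 98.7 and 107 units in HC/HT and 75.7, 157, 132 and 118 in HC (-0.31 ± 0.42). Cd5l, a macrophage survival protein, had 25.4, 32.3 and 32.7 in HC/HT and 20.5, 38.4, 54.3 and 40.0 in HC (-0.27 ± 0.44), and Gpnmb, a foam cell glycoprotein, had 437, 237 and 413 in HC/HT and 244, 472, 322 and 716 in HC (-0.21 ± 0.47). These markers sat near the all-gene shift. Foam cell and lysosome genes had 0 of 20 above 0 (median -0.36), and lipid handling genes 6 of 27 (median -0.32). Without HC replicate 2 the macrophage median was -0.15.

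Other immune lists were small or divided. Complement stood at a median of -0.69 with 3 of 18 above 0, though -0.13 without HC replicate 2 and -1.01 without HC replicate 4. Cd59a, a membrane inhibitor of the lytic complex, had 52.3, 22.1 and 53.1 in HC/HT, against 85.1, 64.3, 115 and 68.8 in HC, and was 1 of 2 members below HC throughout, beside 4.53% of all genes. Interferon-stimulated genes were above 0 in 16 of 22 (median 0.16, or 0.35 with median-of-ratios factors), with Oas1a at 13.1, 13.6 and 13.2 units in HC/HT, against 10.3, 8.72, 5.29 and 7.54 in HC (0.74 ± 0.57). Chemokines and cytokines had 13 of 29 above 0 (median -0.04), antigen presentation 6 of 18 (-0.25), T and NK cell genes 5 of 17 (-0.34), B and plasma cell genes 2 of 4 (0.08), and neutrophil and mast cell genes 2 of 9 (-0.21). T cell levels were near the detection limit, with Cd8b1 at 0.196, 0.392 and 0.686 units in HC/HT and 2.74, 2.06, 1.96 and 2.06 in HC.

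Melanocytes populate mouse valve leaflets, and their genes were divided. Tyrp1, a melanin enzyme, had 59.6, 125 and 23.7 units in HC/HT, against 20.7, 28.7, 26.8 and 9.70 in HC (1.44 ± 0.49), and Kit, the stem cell factor receptor of melanocytes and mast cells, had 12.9, 27.8 and 14.8 in HC/HT, against 6.66, 10.6, 9.40 and 10.1 in HC (0.90 ± 0.43). Dct, another melanin enzyme, had 74.1, 88.8 and 83.4 in HC/HT and 68.9, 94.2, 107 and 49.9 in HC, with no gap. Across the list 5 of 10 were above 0 (median 0.05). Nerve and Schwann cell genes had 2 of 11 above 0 (median -0.21).

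General cell machinery leaned down by more than the all-gene shift. None of 50 cytosolic ribosomal protein genes had a difference above 0 (median -0.55, or -0.35 with median-of-ratios factors), and 2 of 32 respiratory chain genes did (median -0.47). Summed ribosomal protein genes came to 8374, 9368 and 4680 units in HC/HT, against 14872, 13489, 12652 and 5276 in HC. HC/HT replicate 3 and HC replicate 4 were the low libraries of their groups, and the ribosomal median was -0.09 without HC/HT replicate 3, while the respiratory chain median became 0.10. Antioxidant genes were above 0 in 3 of 26 (median -0.46), with catalase, Cat, at -0.91 ± 0.36. Unfolded protein response genes were above 0 in 3 of 20 (median -0.40), adipocyte genes in 0 of 7 (-0.51), proliferation genes in 8 of 29 (-0.23), immediate early genes in 8 of 25 (-0.20), and basement membrane and elastic fibre genes in 5 of 26 (-0.26), with the elastic fibre protein Mfap4 at -1.19 ± 0.53.

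The same transgene pair was also present without the ApoE knockout, in HT against CON, which shares no library with HC/HT against HC. In that pair 0 of 15004 genes passed, 1922 had an unadjusted p under 0.05 (12.8%), and the all-gene median was -0.42. All 4 HT libraries lay above all 4 CON libraries in 10 genes (0.0666%) and below them in 622 (4.15%). Of all genes 86.7% had a difference below 0 in HT minus CON and 13.3% one above 0. Of the 15 genes named as lower in HC/HT, 13 (86.7%) were lower in HT, the share of all genes, with a median HT minus CON of -0.53. Of the 15 named as higher, 12 (80.0%) were higher in HT, with a median of 0.54. Across all genes 70.2% had the same sign in both, most of them lower in both (9474 genes). The differences had a Pearson r of 0.35 and a Spearman rho of 0.31 across genes, given as a description. All these values are on the deposited scale, where the 4 abundant rows took on average 54.4% of HT and 41.6% of CON libraries. In HC/HT and HC they took on average 50.9% and 41.4%. The part of these rows in the shared signs was not tested. Of the 679 genes below HC in every HC/HT library, 94.1% were also lower in HT than in CON, beside 86.7% of all genes, and of the 153 above HC, 37.3% were also higher in HT, beside 13.3%.

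Some of the genes described stood the same way on both backgrounds. Lyve1 averaged 1.04 ± 0.688 units in HC/HT, 15.2 ± 8.57 in HC, 10.4 ± 7.99 in HT and 40.2 ± 11.0 in CON, with a difference of -2.71 on the knockout and -2.18 on the control background. Clec14a stood at -1.26 and -1.60, and Nrg1 at 1.72 and 1.47. Nrg1 had 46.5, 13.2, 115 and 16.7 units in HT, against 11.3, 11.9, 24.4 and 7.25 in CON, so HT replicates 1 and 3 carried it, as they did for Hmgcs1 at 40.6, 16.0, 42.7 and 15.9 units in HT, against 32.5, 21.1, 21.1 and 7.84 in CON. The cholesterol list had 18 of 24 genes above 0 in HT minus CON, beside 13.3% of all genes, with a median of 0.33.

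The direct test of the difference between both backgrounds called no gene. The interaction, HC/HT minus HC less HT minus CON, had 0 of 15004 genes past the threshold, a smallest adjusted p of 0.9998 and 207 genes at an unadjusted p under 0.05 (1.38%). Among the genes described, Tyrp1 had the highest value, 2.58, with -1.14 in HT minus CON, and Spp1 (-2.86) and Acan, the large cartilage proteoglycan (-2.51), had the lowest. Acan had 1.57, 1.47 and 0.490 units in HC/HT and 0.882, 7.35, 5.98 and 6.27 in HC, but 7.54, 3.23, 3.04 and 3.53 in HT, against 0.686, 2.16, 1.57 and 0.784 in CON. Tnc likewise stood at -1.43 in HC/HT minus HC and 0.54 in HT minus CON. Each of these had an interaction adjusted p of 0.9998, so no gene is shown to differ between the backgrounds.

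**Figure D5:**
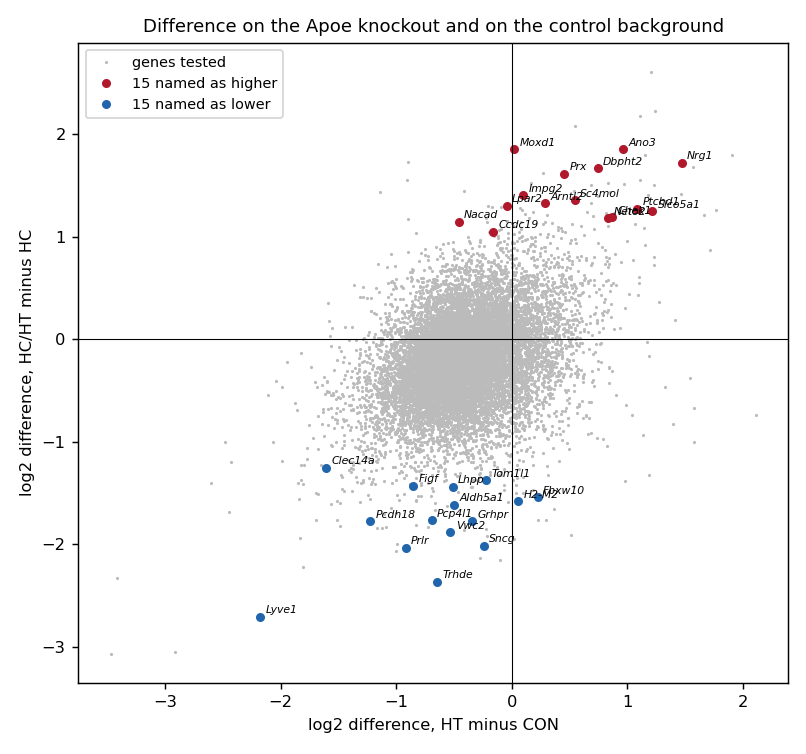
Difference on the ApoE knockout background (HC/HT minus HC, vertical axis) against that on the control background (HT minus CON, horizontal axis), both log2, for 15004 genes. Grey points are genes tested, and red and blue points are the 15 named as higher and the 15 named as lower. The blue points lie mostly in the lower left, with Lyve1 farthest, and 12 of the red points are right of 0.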

How the data were processed

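Aortic valve RNA of 15 mice was used, 7 of them for the comparison described. Per the labels' protocols, cDNA was amplified from total RNA with the Nugen Ovation kit and libraries were made with the KAPA kit. Tools listed in the submitters' processing notes are edgeR, SAMtools 0.1.9, Bowtie 1.0.1 and FastQC 0.11.2, with build mm10. The normalisation method is not stated there. The table holds a score per gene for 20992 rows, which the authors deposited as whole numbers after normalisation. Deposited totals lie between 10207928 and 10210305, so depth is unknown and no counting interval is given. Of the columns, 1 has no name and was not used.

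All values were multiplied by 0.0979537. A gene was kept if 4 or more libraries reached 1 unit, and the rest were left out. The fit was made in R 4.3.3 by limma 3.58.1 (trend and robust moderation) on log2(units + 1), with terms for group and sex over all 15 libraries, two-sided, Benjamini-Hochberg over 15004 genes. The script was tested on simulated data, with 50 of the more abundant genes changed in HC/HT at each size. At a log2 change of 1, 14% were recovered, at 2 it was 90%, and 6 other genes were called falsely. Changes near 1 could therefore mostly go uncalled. The simulated noise was independent between genes and had no shifts shared by a whole library, unlike these data. Its recovery at larger changes need not hold here: Trhde at -2.37 and Lyve1 at -2.71 went uncalled. Positions are mm10. Some genes are not reported here. Genes named are the 15 of each direction with the smallest p among named genes whose groups do not overlap, the 4 smallest p of each of 39 lists, and a set always named. Other list members were named after their values were seen. The comparison, lists and rule were chosen with earlier results of these data known. Alternatives changed scaling, pseudocount, filter, sex term, replicate block, weights, moderation, threshold, samples fitted and libraries left out. Labelled sex matched Xist and Y-linked genes in 15 of 15 libraries.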

Additional observations from a re-analysis of the deposited data

Results flagged for a closer look

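In the 4 HC libraries, 14 of 191 named genes had 1 library set apart from the other 3. The gap, taken on log2(units + 1) as a share of the group's range, was above Dixon's 95% critical value. Chance flags about 1 in 20 such groups, and groups of 3, such as HC/HT, are not tested this way. HC replicate 4 was the low library in 7 of the 14, with Lyve1 at 2.55, Fbln1 at 94.2, Lama2 at 64.6, Dcn at 2158, Cd209f at 0, Cxcl12 at 30.1 and Trib3 at 0.392 units. HC replicate 1 was the low one for Slco5a1 at 1.67 and Acan at 0.882 units and the high one for Cd8b1 at 2.74. HC replicate 2 was high for Impg2 at 2.25 and low for Nacad at 1.37 units. HC replicate 3 was high for Plod2 at 199 and Itgam at 220 units.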

How the results depend on the processing

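No alternative called more than 3 genes in HC/HT against HC, and 16 of 21 called 0. The replicate number as a block called 1 (Trhde), limma array weights 2 (Lyve1 and Trhde) and females alone 3 (Alas2, Fibin and Trhde, all lower). Leaving out 1 library gave 0 to 3: 3 without HC/HT replicate 3 (Hlf and RN45S lower, Tspan8 higher) and 2 without HC replicate 4 (Lyve1 and Trhde). Fewer samples are in the last 3 of these fits, and the cause was not tested. The labels do not say what a replicate number shares. Same-numbered deviations from the group means correlated at 0.069, 0.071 and -0.023, and the highest value of any pair was 0.252, for HC/HT replicate 3 with HC replicate 4. Deviations from means of 3 and 4 libraries cannot settle whether the numbers pair them. The replicate block is therefore given only for its 1 call. The interaction called 0 genes in 27 of 28 alternatives, from 0 to 0 when a library was left out, and 10, all lower heart muscle genes, among females alone, where CON has 1 library. Of 191 named genes, 3 passed under any alternative. No named gene changed sign by more than its standard error in both settings. Smaller sign changes came in 48 of 3784 pairs of gene and setting, in 18 genes. Depth is unknown, so low values such as Cd209f and Moxd1 have no counting error.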
